A study of Mus musculus with 18 samples.

Results

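Chemokines are small secreted proteins that guide the movement of leukocytes, and they act through receptors on the cells that respond. The genes described here are the chemokine ligands and chemokine receptors of the mouse, taken by symbol: Ccl, Cxcl, Xcl or Cx3cl with a number for ligands, and Ccr, Cxcr, Xcr or Cx3cr with a number for receptors. This rule found 56 of the 54752 genes in the count table, 38 ligands and 18 receptors, and used no measured value. Of these, 43 (28 ligands and 15 receptors) had enough counts to be tested and 13 did not. Atypical receptors, Pf4 and Ppbp fall outside the symbols and are described with the partner genes.

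RNA came from the livers of 18 male C57BL/6 mice, 6 per group, taken in week 22 of an experiment that began at 6 weeks of age with 15 mice per group. Control mice were injected with olive oil into the peritoneum 2 times per week and had double distilled water by gavage. The CCl4 mice had carbon tetrachloride on that schedule and the same water, and the CCl4_PTH mice had carbon tetrachloride and a daily gavage of PTH. The labels write PTH and PZH for what is taken here as 1 preparation, Pien Tze Huang, a traditional Chinese medicine. CCl4 is turned into a reactive radical in hepatocytes, and repeated dosing injures and scars the liver. The labels call the CCl4 model liver cancer. Whether the sampled tissue held tumour, how the 6 mice were chosen and how long after the last injection they were killed are not given in the sources used here. In all that follows, CCl4 is the solvent or its group of mice, and Ccl4 is a chemokine gene.

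Chemokine receptors are G protein-coupled receptors that signal through inhibitory G proteins to the cytoskeleton. CC chemokines such as Ccl2 draw mainly monocytes, T cells and eosinophils, while CXC chemokines with a glutamate-leucine-arginine motif such as Cxcl1 draw neutrophils, and interferon-induced CXC chemokines such as Cxcl10 draw activated T cells and NK cells. In injured liver, Ccl2 made by Kupffer cells, stellate cells and hepatocytes brings in Ccr2-bearing monocytes that become macrophages, and Cxcl12 and its receptor Cxcr4 hold and place cells in the tissue in health. Cx3cl1 and Cxcl16 are made as transmembrane proteins that can both tether cells and be shed.

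Counts were scaled to CPM (the number of counts a gene would have in a library scaled to a common size) with TMM factors, which correct for the make-up of each library. Total counts ran from 67.2 to 119 M per library. The hepatocyte markers Alb, Apoa1, Ttr, Cyp2e1, Cps1 and Hnf4a summed to 40168 to 55224 CPM in control, 15356 to 43424 in CCl4 and 31596 to 41785 in CCl4_PTH libraries, and 4 of these 6 fell after CCl4. Leukocyte markers (Ptprc, Coro1a and Laptm5) summed to 19.8 to 30.5, 85.4 to 261 and 56.9 to 103 CPM in the same order, and all 3 rose after CCl4. Library CCl4_PTH 1 stood apart from its group, with a summed neutrophil marker level of 208 CPM against 12.4 to 23.4 in the other 5. Libraries CCl4 4 and CCl4 7 had the highest T cell marker sums, 31.6 and 23.4 CPM, against 3.22 to 10.2 in the other 4 CCl4 libraries. Nothing in the labels names a batch. With library sizes alone in place of TMM factors, the median log2 fold change of all genes moved from 0.05 to 0.63 for CCl4 against control, from −0.03 to −0.13 for CCl4_PTH against CCl4, and from 0.04 to 0.51 for CCl4_PTH against control.

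Control liver held a chemokine message that stood above the others. Per kilobase of annotated exon, Cxcl12 averaged 32.7 CPM in the control group, ahead of Ccl9 at 6.54, Cxcl1 at 2.16 and Ccl6 at 1.78. In CCl4 livers the per-kilobase means were 27 for Ccl6, 22.8 for Cxcl12, 14.6 for Ccl9 and 9.29 for Cxcl13. The Ccl6 mean was raised by CCl4 4 and 7, at 54.2 and 43.4 CPM per kilobase, while Cxcl12 was above Ccl6 in CCl4 1, 5 and 8. Without CCl4 4, Cxcl12 came first at 23 and Ccl6 next at 21.5. In CCl4_PTH livers Cxcl12 again led at 28.6 CPM per kilobase, followed by Ccl6 at 11.7 and Cxcl1 at 10.9, both raised by library CCl4_PTH 1. Without it, Ccl9 came after Cxcl12, at 9.73.

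The 18 receptors together summed to 10.7 to 15.9 CPM in control, 50.1 to 141 in CCl4 and 26.5 to 50.2 in CCl4_PTH libraries. Every CCl4 library and every CCl4_PTH library was above every control library, and the highest CCl4_PTH library was just above the lowest CCl4 library. The ligands other than Cxcl12 summed to 41.9 to 61.1 CPM in control, 95.3 to 387 in CCl4 and 70.1 to 284 in CCl4_PTH libraries. With Cxcl12 included the ligand sums overlapped between all 3 groups, at 295 to 346, 300.4 to 563 and 322 to 459.5 CPM.

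**Figure D1:**
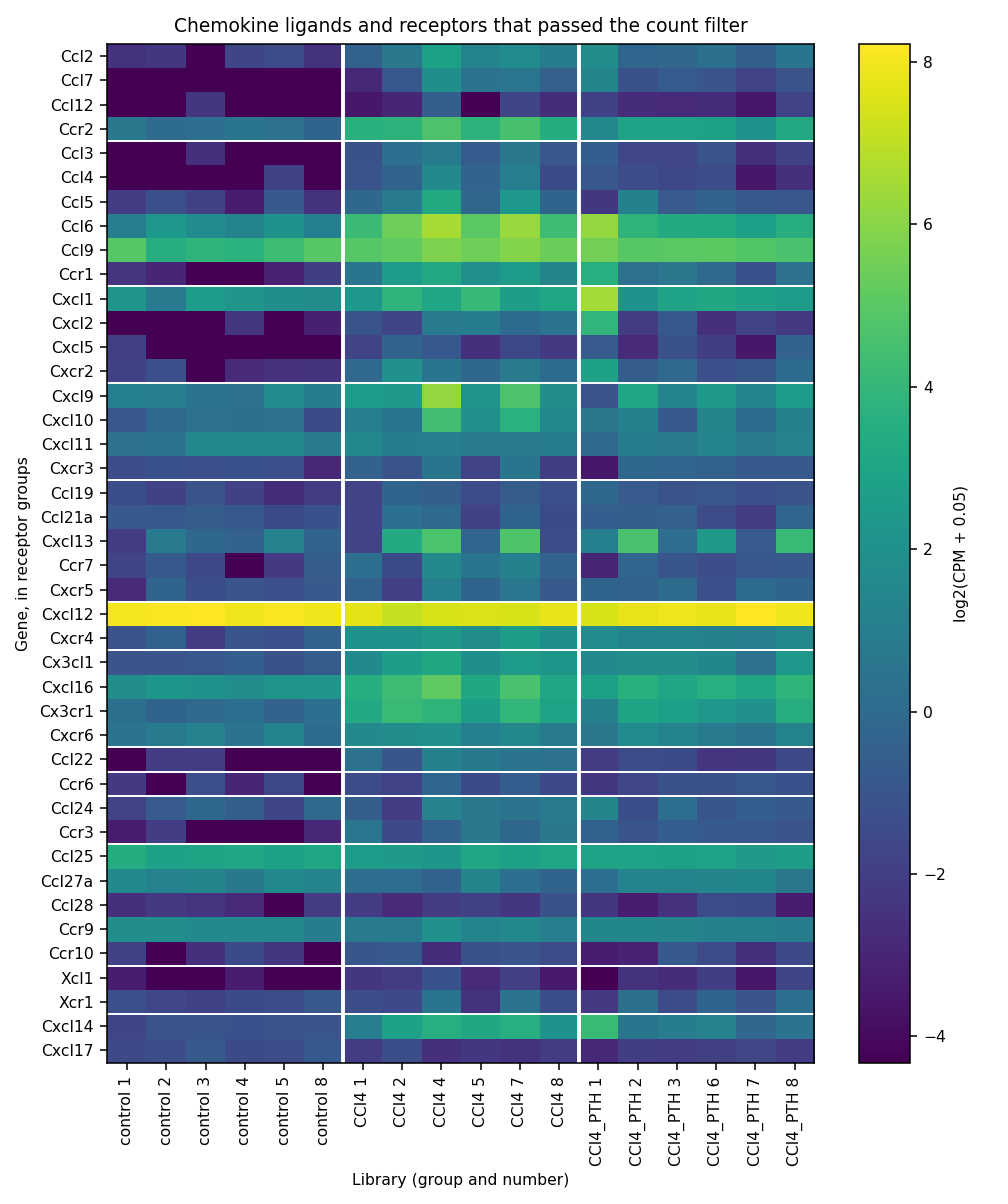
Levels of tested chemokine ligands and receptors (rows, grouped by receptor) in the 18 libraries (columns, by group), as log2 of CPM plus 0.05. Most rows are darkest in the 6 control columns, Cxcl12 is the brightest row throughout, and CCl4_PTH 1 is bright for Cxcl1, Cxcl2, Ccl6 and Cxcl14.

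All 3 comparisons were fitted with edgeR's quasi-likelihood test, and a gene is called higher or lower where its p, adjusted by Benjamini-Hochberg over all 21840 genes tested, was under 0.05. Fold changes are log2 values with an approximate standard error (SE).

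Repeated CCl4 raised most of the tested members. Of 43, 29 were higher after CCl4 than in control, where 26.3% of all genes tested were called higher, and 3 (Ccl27a, Cxcl12 and Cxcl17) were lower, where 21.2% of all genes were. In both directions together, 47.4% of all genes were called. The 29 were 19 of 28 ligands and 10 of 15 receptors. The median log2 fold change of the members was 2.99, against 0.05 over all genes tested. For 20 members the lowest CCl4 library was above the highest control library (14.8% of all genes), and for Cxcl12 every CCl4 library was below every control library (11.3% of all genes). Of all calls, 55.3% were higher with TMM factors and 91.4% with library sizes alone. With library sizes alone 35 members were called higher and 0 lower, beside 51.6% and 4.86% of all genes. Genes were tested only where about a group's worth of libraries had counts, so a member near 0 in control entered through the groups where it was on, and the counts describe the tested members only.

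With PTH added to CCl4, 5 members were lower than with CCl4 alone, among them the ligands Ccl22 and Cxcl10 and the receptors Ccr2 and Cxcr4. In edgeR 0 were called higher, with 2 at an unadjusted p under 0.05 (Ccl27a and Cxcl12). DESeq2 called 1 higher and voom 2, beside 9.25% and 10.1% of all genes. DESeq2 called 12 lower and voom 10, beside 8.23% and 9.02% of all genes. Over all genes tested, edgeR called 4.95% lower and 7.1% higher, 12.1% in all. All 5 that edgeR called lower had been called higher after CCl4, as were 29 of the 43 tested members. Both comparisons use the same CCl4 libraries, so high values there enter both. For Ccl22, Ccr2 and Cxcr4 every CCl4_PTH library was below every CCl4 library, which held for 1.87% of all genes, and for 0 members was every one above (2.2% of all genes). The other 38 tested members were not called by edgeR. Of the 43, 34 had a negative log2 fold change, with a median of −0.50 against −0.03 over all genes. Of all calls in this comparison, 58.9% were higher with TMM factors and 43.4% with library sizes alone, under which 4 members were lower (2.84% of all genes). Without CCl4_PTH 1, 10 members were called lower (7.06% of all genes) and 2 higher (Cxcl12 and Ccl27a, beside 10.3% of all genes). Without CCl4 4 or CCl4 7, 2 were lower (Ccl22 and Ccr2), beside 2.64% and 2.62% of all genes. With the replicate number as a block, 0 members were lower (0.192% of all genes).

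Against control, the CCl4_PTH livers had 21 members higher (17.4% of all genes tested) and 1, Cxcl17, lower (10.3%; 27.7% in both directions), with a median log2 fold change of 1.68 against 0.04. For 13 members every CCl4_PTH library was above every control library (9.79% of all genes), and for Cxcl17 every one was below (4.67%). Of the 29 members higher after CCl4 alone, 20 were also called higher in this comparison and 9 were not. Among the 20, Ccl4, Ccl9, Ccl19, Cxcl5 and Xcl1 lost this call in 9, 8, 6, 6 and 8 of 18 fits without 1 library. The remaining 1 of the 21 was Cxcl1. Of all calls, 62.8% were higher with TMM factors and 96.4% with library sizes alone. The 3 comparisons share libraries in pairs, so a low value in the CCl4 or control group enters more than 1 of them. Leaving out 1 library at a time moved the count of members called lower with PTH between 2 and 10, and the share of all genes between 2.58% and 7.06%. Other settings also ended calls. After CCl4, the calls of Ccl12, Cxcl13 and Cxcr5 were lost without the count filter, those of Ccl19 and Cxcr5 in a fit of only the 2 groups, those of Cxcl13 and Cxcr5 with voom, and those of Ccl27a, Cxcl12 and Cxcl17 with library sizes alone. The replicate number as a block ended those of Ccl12, Ccr7, Cxcl9, Cxcl13 and Cxcr5. In CCl4_PTH against control, Ccl4, Ccl9, Cxcl17 and Xcl1 lost theirs without the count filter, Ccl4 and Ccl9 with only the 2 groups, Cxcl1 and Cxcl2 with voom, and Cxcl17 with library sizes alone. The block ended those of Ccl9, Ccl19, Cxcl1, Cxcl5, Cxcl17 and Xcl1 in that comparison.

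**Figure D2:**
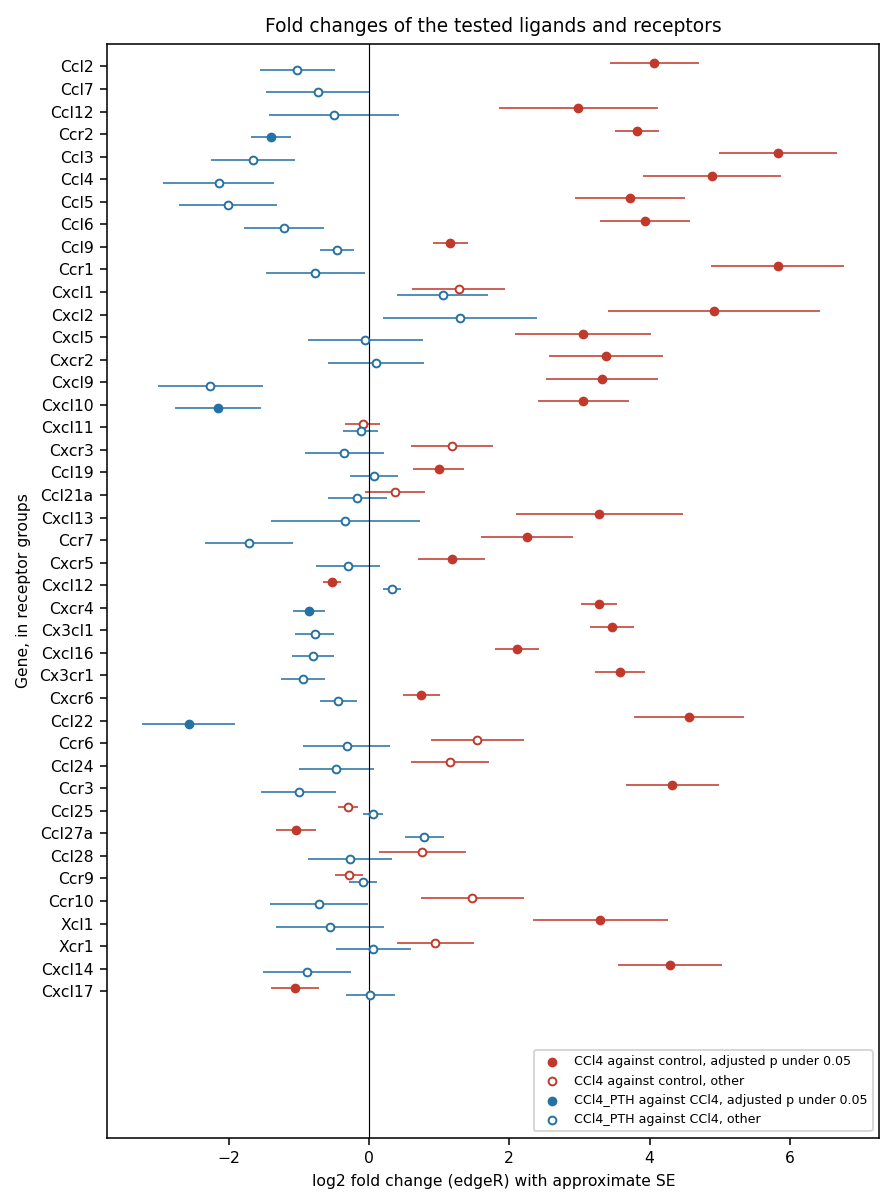
Log2 fold changes with approximate SE bars for tested members, CCl4 against control in red and CCl4_PTH against CCl4 in blue, with filled points for an edgeR adjusted p under 0.05. Red points lie mostly right of 0 and the blue points of Ccl22, Cxcl10, Ccr2 and Cxcr4 are filled and left of 0. No red point is drawn for Ccl7, which had 0 counts in all 6 control libraries.

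The Ccr2 axis, which brings inflammatory monocytes out of the blood, rose after CCl4 in 4 of 4 tested members, and 1 of them, Ccr2, fell with PTH. Ccl2, the main Ccr2 ligand (chromosome 11, 82035571 to 82037453, GRCm38), ranged from 0 to 0.321 CPM (median 0.141) in control, 0.693 to 6.87 CPM (median 2.203) in CCl4 and 0.642 to 3.46 CPM (median 1.02) in CCl4_PTH libraries. All CCl4 and CCl4_PTH libraries were above all control libraries, and the CCl4 and CCl4_PTH libraries overlapped. Ccl2 rose after CCl4 by 4.06 ± 0.63 (log2, SE; edgeR adjusted p = 4.51e-05), and the difference between CCl4_PTH and CCl4 was −1.02 ± 0.54 and did not pass (edgeR adjusted p = 0.231). It remained above control with PTH, at 3.05 ± 0.62 SE, edgeR adjusted p = 0.00142.

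Ccl7, another monocyte attractant that lies next to Ccl2 on chromosome 11, had 0 counts in all 6 control libraries. It had 0.0866 to 3.69 CPM (median 0.983) in CCl4 and 0.252 to 2.61 CPM (median 0.426) in CCl4_PTH libraries. Against a floor of 3 counts over the control group, which covers counting error only, Ccl7 was at least 179.8-fold higher in CCl4 and at least 103-fold higher in CCl4_PTH livers (edgeR adjusted p = 0.000162 and 0.000968). Without CCl4 4 the CCl4 bound was 109-fold, and without CCl4_PTH 1 the CCl4_PTH bound was 53.9-fold. Its highest CCl4_PTH value came from CCl4_PTH 1 (2.61 CPM), while the other 5 had 0.252 to 0.577 CPM. Ccl8, also a monocyte attractant, was not tested. It had 0 counts in control and reached 4.68 CPM in CCl4 4 and 1.98 in CCl4 7, against 0 to 0.21 CPM in CCl4_PTH libraries. Ccl12, a rodent Ccr2 ligand, was called higher after CCl4 (2.98 ± 1.14 SE, edgeR adjusted p = 0.0372), with a mean of only 0.187 CPM in the CCl4 group. In control it had counts in control 3 only (0.156 CPM). The Ccl12 call was lost without control 1, 2, 4, 5 or 8 or CCl4 4 or 7 (edgeR adjusted p from 0.0668 to 0.158).

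Ccr2, the receptor that marks inflammatory monocytes (chromosome 9, 124101950 to 124113557), separated all 3 groups. It ranged from 0.782 to 1.59 CPM (median 1.17) in control, 10.7 to 26.5 CPM (median 13.6) in CCl4 and 2.71 to 9.37 CPM (median 7.3) in CCl4_PTH livers, and no 2 of these ranges overlapped. The rise after CCl4 was 3.82 ± 0.31 on the log2 scale (SE; edgeR adjusted p = 6.93e-08). With PTH it fell by 1.39 ± 0.28 (SE, edgeR adjusted p = 0.00503), to a mean of 6.38 ± 2.48 CPM from 16.8 ± 6.59 (SD, n = 6), and it stayed above control by 2.42 ± 0.30 SE, edgeR adjusted p = 1.85e-05. The lowest CCl4_PTH value, 2.71 CPM, was that of CCl4_PTH 1, and the call held in each of the 18 fits that left out 1 library. The call with PTH was lost with the replicate number as a block (edgeR adjusted p = 0.148).

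Markers of the cells that carry Ccr2 moved alongside. All 8 monocyte and macrophage markers (Adgre1, Csf1r, Cd68, Lyz2, Ly6c2, Itgam, Cd14 and Fcgr1) rose after CCl4, 3 of the 8 (Cd68, Ly6c2 and Fcgr1) fell with PTH, and none was at 0 in a whole group. Their sum was 74.6 to 106 CPM in control, 273 to 799 in CCl4 and 183 to 409 in CCl4_PTH libraries. Of the 5 Kupffer cell markers, 3 (Vsig4, Cd5l and Marco) rose after CCl4 and 1 (Clec4f) rose with PTH. In whole tissue, fewer cells of a type and less RNA per cell cannot be told apart, and the part of the marker changes in the receptor changes was not tested. Per unit of Ptprc, the pan-leukocyte surface protein, Ccr2 had ratios of 0.0656 to 0.143 (median 0.0839) in control, 0.184 to 0.303 (median 0.214) in CCl4 and 0.0896 to 0.184 (median 0.142) in CCl4_PTH libraries. Those CCl4 and CCl4_PTH ratios met only at their edge.

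**Figure D3:**
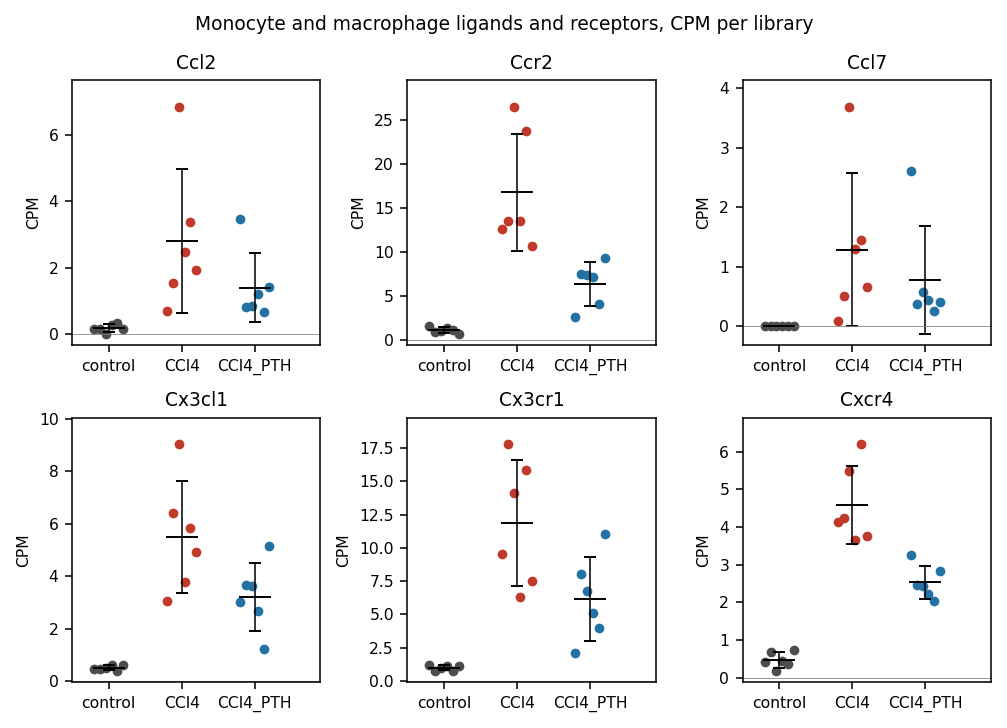
CPM of Ccl2, Ccr2, Ccl7, Cx3cl1, Cx3cr1 and Cxcr4 in each library (points) by group, with the mean (horizontal line) and SD (bar, n = 6). Control points lie lowest in every panel, and for Ccr2 and Cxcr4 the CCl4_PTH points lie between the other groups without overlap.

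The inflammatory CC chemokines Ccl3, Ccl4, Ccl5, Ccl6 and Ccl9 and the receptor Ccr1, which serve monocytes, macrophages, T cells and neutrophils, rose after CCl4. With PTH, 0 of these 6 were called by edgeR over all 18 libraries. DESeq2 called Ccl3 and Ccl5 lower with PTH (DESeq2 adjusted p = 0.0248 and 0.0136). The voom fit called Ccl3, Ccl4, Ccl6 and Ccr1 lower (voom adjusted p = 0.00869, 0.0239, 0.00469 and 0.00771). Ccl3 and Ccl4, the macrophage inflammatory proteins, were near 0 in control. Ccl3 had 0 to 0.117 CPM in control, 0.384 to 1.83 CPM (median 0.864) in CCl4 and 0.113 to 0.622 CPM (median 0.267) in CCl4_PTH libraries. Its log2 change after CCl4 was 5.83 ± 0.84 SE, edgeR adjusted p = 1.79e-05. The difference with PTH was −1.65 ± 0.60 SE, edgeR adjusted p = 0.0777, and it was called lower without control 3 or CCl4_PTH 1 (edgeR adjusted p from 0.0386 to 0.0392). A fit of only the 2 groups also called it lower (edgeR adjusted p = 0.0447).

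Ccl4 had 0 to 0.229 CPM in control, 0.301 to 2.91 CPM (median 0.726) in CCl4 and 0.0378 to 0.485 CPM (median 0.306) in CCl4_PTH libraries. It rose after CCl4 (4.89 ± 0.99 SE, edgeR adjusted p = 0.0005), and its difference with PTH, −2.14 ± 0.79, did not pass (edgeR adjusted p = 0.085). With PTH, Ccl4 passed without control 5 (edgeR adjusted p = 0.0426) and with voom over all libraries (voom adjusted p = 0.0239). Its call against control in CCl4_PTH livers (edgeR adjusted p = 0.0423) was lost in 9 of 18 fits without 1 library, those without control 1, 2, 3, 4 or 8 or CCl4_PTH 1, 2, 3 or 6 (edgeR adjusted p from 0.0622 to 0.0839). Ccl5, a T cell and macrophage attractant made by T and NK cells, had 0.0459 to 0.519 CPM (median 0.194) in control, 0.773 to 9.62 CPM (median 1.35) in CCl4 and 0.153 to 2.24 CPM (median 0.535) in CCl4_PTH libraries. Its 2 highest values were 9.62 CPM in CCl4 4 and 5.03 in CCl4 7. The rise after CCl4 was 3.72 ± 0.78 SE, edgeR adjusted p = 0.000738, and the difference with PTH was −2.01 ± 0.70 SE, edgeR adjusted p = 0.0689, which passed without CCl4 1 or 8 or CCl4_PTH 2 (edgeR adjusted p from 0.0275 to 0.0471).

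Ccl6 and Ccl9 are rodent chemokines of myeloid cells that bind Ccr1. Ccl6 rose after CCl4 from a range of 2 to 5.07 CPM (median 2.85) to a range of 18.7 to 97.2 CPM (median 38.2), with no overlap (3.93 ± 0.64 SE, edgeR adjusted p = 9.12e-05). In CCl4_PTH livers it had 6.63 to 73.7 CPM, of which 73.7 was CCl4_PTH 1, and the other 5 libraries (6.63 to 14.4 CPM) lay below all 6 CCl4 libraries. With all libraries the PTH difference was −1.21 ± 0.57 SE, edgeR adjusted p = 0.181, and without CCl4_PTH 1 it was −2.18 ± 0.42 SE, edgeR adjusted p = 0.00217. Ccl9 was already at 11.3 to 30.7 CPM (median 17.1) in control and rose to a range of 30.5 to 59.3 CPM (median 42.8) after CCl4 (1.16 ± 0.25 SE, edgeR adjusted p = 0.000784), with overlap between the groups. Its CCl4_PTH libraries had 24.4 to 47.6 CPM (median 31.2), a difference from CCl4 of −0.45 ± 0.24 SE, edgeR adjusted p = 0.245. Against control the CCl4_PTH call for Ccl9 (0.71 ± 0.24, edgeR adjusted p = 0.0369) was lost without control 2, 3, 4 or 5 or CCl4_PTH 1, 2, 3 or 6 (edgeR adjusted p from 0.0535 to 0.0938).

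Ccr1, a receptor of neutrophils and monocytes, rose after CCl4 from a range of 0 to 0.203 CPM (median 0.0686) to a range of 1.44 to 9.55 CPM (median 4.83) (5.82 ± 0.95 SE, edgeR adjusted p = 8.11e-05). In CCl4_PTH livers CCl4_PTH 1 had 11.8 CPM, above every CCl4 library, and the other 5 had 0.403 to 1.54 CPM. The PTH difference for Ccr1 was −0.77 ± 0.70 SE, edgeR adjusted p = 0.535 over all libraries and −2.15 ± 0.52 SE, edgeR adjusted p = 0.0081 without CCl4_PTH 1.

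Cxcl1, Cxcl2 and Cxcl3, Cxcr2 ligands that draw neutrophils, were far higher in 1 CCl4_PTH liver than in the other 17. Of 4 tested members, 3 (Cxcl2, Cxcl5 and Cxcr2) were called higher after CCl4 and 0 were called with PTH. Cxcl1, Cxcl2 and Cxcl3 lie within 147 kb on chromosome 5 with Cxcl5 and Cxcl15, and their promoters are shown because the same 11 bases stand near the start of each. The 250 bases before each RefSeq transcript start (GRCm38.p6, plus strand) are chr5:90890995-90891244 for Cxcl1, chr5:90903649-90903898 for Cxcl2 and chr5:90785851-90786100 for Cxcl3, written 5′ to 3′, with matches to the NF-kB consensus in capitals:

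Cxcl1: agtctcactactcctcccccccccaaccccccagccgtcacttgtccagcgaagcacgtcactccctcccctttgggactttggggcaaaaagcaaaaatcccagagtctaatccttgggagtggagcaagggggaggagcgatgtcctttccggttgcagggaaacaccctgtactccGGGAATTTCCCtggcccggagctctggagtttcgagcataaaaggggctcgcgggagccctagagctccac
Cxcl2: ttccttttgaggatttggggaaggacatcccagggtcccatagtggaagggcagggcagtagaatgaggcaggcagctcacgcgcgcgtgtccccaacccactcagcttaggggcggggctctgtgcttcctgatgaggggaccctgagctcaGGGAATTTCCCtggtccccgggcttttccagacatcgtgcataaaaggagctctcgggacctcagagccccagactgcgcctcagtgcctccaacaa
Cxcl3: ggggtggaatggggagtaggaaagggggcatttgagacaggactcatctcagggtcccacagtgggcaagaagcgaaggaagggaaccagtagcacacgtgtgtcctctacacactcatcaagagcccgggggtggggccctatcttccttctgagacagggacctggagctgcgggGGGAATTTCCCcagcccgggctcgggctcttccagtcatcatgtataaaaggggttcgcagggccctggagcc

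The run GGGAATTTCCC begins 71 bases before the start in Cxcl1, 97 in Cxcl2 and 73 in Cxcl3. NF-kB is the transcription factor family activated by TNF, IL-1 and bacterial products. The match is a description of the sequence and not of binding.

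Cxcl1, made by hepatocytes and other liver cells, had 1.81 to 5.92 CPM (median 4.16) in control, 5.11 to 16.8 CPM (median 8.33) in CCl4 and 4.24 to 88.6 CPM (median 7.32) in CCl4_PTH libraries. CCl4_PTH 1 alone held 88.6 CPM, and the other 5 had 4.24 to 9.04 CPM, which overlapped the CCl4 range. After CCl4 the log2 difference was 1.28 ± 0.67 SE, edgeR adjusted p = 0.126, and it passed when CCl4_PTH 1 was left out of the fit (1.24 ± 0.29 SE, edgeR adjusted p = 0.00196), with the same CCl4 and control libraries. It also passed in a fit of only the 2 groups (edgeR adjusted p = 0.00411), with voom (voom adjusted p = 0.0465) and with library sizes alone (edgeR adjusted p = 0.0299). CCl4_PTH livers were called higher than control with all libraries (2.33 ± 0.68 SE, edgeR adjusted p = 0.0176) and not without CCl4_PTH 1 (0.72 ± 0.30 SE, edgeR adjusted p = 0.0925). Between CCl4_PTH and CCl4 the difference was 1.05 ± 0.65 SE, edgeR adjusted p = 0.324 with all libraries, and its direction turned without CCl4_PTH 1 (−0.52 ± 0.30 SE, edgeR adjusted p = 0.266).

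Cxcl2, made mainly by activated macrophages and neutrophils, had 0 to 0.153 CPM in control, 0.259 to 1.9 CPM (median 1.17) in CCl4 and 0.109 to 15.5 CPM (median 0.207) in CCl4_PTH libraries. The rise after CCl4 was 4.92 ± 1.51 SE, edgeR adjusted p = 0.0126. CCl4_PTH 1 had 15.5 CPM. With it the PTH difference was 1.30 ± 1.09 SE, edgeR adjusted p = 0.491, and without it the other 5 (0.109 to 0.5 CPM) were called lower than CCl4 (−2.24 ± 0.70 SE, edgeR adjusted p = 0.0341). Cxcl3, not tested, had 0 counts in control, 0 to 0.172 CPM in CCl4, 4.64 in CCl4_PTH 1 and 0 to 0.0444 in the other 5. Cxcl5 was called higher after CCl4 (3.05 ± 0.97 SE, edgeR adjusted p = 0.0143) at 0.115 to 0.752 CPM. Cxcl15 had at most 2 counts in any library.

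Cxcr2, the neutrophil receptor for these ligands, rose from a range of 0 to 0.362 CPM (median 0.126) in control to a range of 0.854 to 4.04 CPM (median 1.19) in CCl4 livers (3.38 ± 0.81 SE, edgeR adjusted p = 0.00213). It had 7.16 CPM in CCl4_PTH 1 and 0.374 to 1.03 in the other 5. Its difference with PTH was 0.097 ± 0.69 SE, edgeR adjusted p = 0.948 with all libraries and −1.25 ± 0.51 SE, edgeR adjusted p = 0.105 without CCl4_PTH 1. Cxcr1, another neutrophil receptor, was not tested and had at most 0.275 CPM in any library. Of 8 neutrophil markers, 7 were tested and all 7 (S100a8, S100a9, Retnlg, Csf3r, Cd177, Mmp8 and Ngp) rose after CCl4, and 0 were called with PTH. Ly6g, Cd177 and Mmp8 were at 0 in all control libraries. The 8 markers summed to 1.63 to 3.81 CPM in control, 13.6 to 105 in CCl4 and 12.4 to 208 in CCl4_PTH libraries, the last with CCl4_PTH 1 at 208, and their part in the ligand values was not tested.

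**Figure D4:**
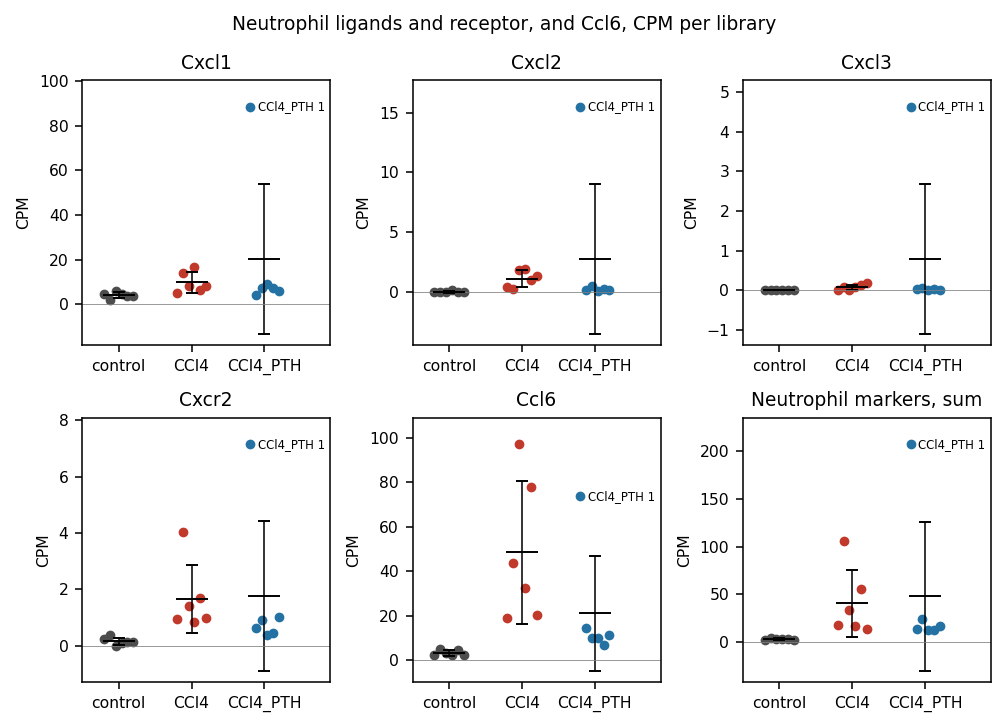
CPM of Cxcl1, Cxcl2, Cxcl3, Cxcr2 and Ccl6 and the summed CPM of 8 neutrophil markers in each library (points) by group, with the mean (line) and SD (bar, n = 6). CCl4_PTH 1 is named in each panel and is the highest library of all 18 for Cxcl1, Cxcl2, Cxcl3, Cxcr2 and the marker sum.

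Cxcl9 and Cxcl10, interferon-induced ligands that draw Cxcr3-bearing T and NK cells, rose after CCl4 and stood highest in 2 livers, while Cxcl11 and the receptor Cxcr3 did not pass. Cxcl10 fell with PTH. All 3 ligands lie within 44 kb on chromosome 5. The promoter of Cxcl10 is shown because it holds 2 runs of the NF-kB consensus and 1 pair of GAAA runs 2 bases apart, the core of interferon-stimulated response elements. The 250 bases before its RefSeq start (chr5:92348890-92349139, GRCm38.p6, minus strand) read 5′ to 3′, with those matches in capitals:

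Cxcl10: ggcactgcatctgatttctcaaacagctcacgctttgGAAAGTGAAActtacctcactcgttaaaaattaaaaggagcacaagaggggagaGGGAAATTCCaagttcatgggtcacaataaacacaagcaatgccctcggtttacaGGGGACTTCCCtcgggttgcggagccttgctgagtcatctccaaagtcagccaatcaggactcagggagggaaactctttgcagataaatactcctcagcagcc

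GAAAGTGAAA begins 213 bases before the start, GGGAAATTCC 159 and GGGGACTTCCC 104. A match to TGANTCA, the core of AP-1 sites and another motif searched, begins 74 bases before the start and is left in lower case.

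Cxcl10 (chromosome 5, 92346638 to 92348889, with exons of Art3 overlapping on the other strand) had 0.304 to 1.3 CPM (median 1.07) in control, 1.43 to 21.7 CPM (median 3.37) in CCl4 and 0.511 to 2.6 CPM (median 1.85) in CCl4_PTH livers. The 2 highest CCl4 values were 21.7 CPM in CCl4 4 and 13 in CCl4 7, and the other 4 CCl4 libraries overlapped the CCl4_PTH libraries. It rose after CCl4 by 3.05 ± 0.65 SE, edgeR adjusted p = 0.000882. With PTH it fell by 2.15 ± 0.62 (SE, edgeR adjusted p = 0.0304), a call that was lost without CCl4 4 or 7 or CCl4_PTH 3 or 7 (edgeR adjusted p from 0.0668 to 0.113) and with library sizes alone (−2.37 ± 0.69 SE, edgeR adjusted p = 0.0549). The call was also lost without the count filter (edgeR adjusted p = 0.0636), in a fit of only the 2 groups (edgeR adjusted p = 0.0653) and by limma voom with quality weights (adjusted p = 0.0792), and it held in DESeq2 (adjusted p = 0.00468). The replicate number as a block ended the call as well (edgeR adjusted p = 0.421). CCl4_PTH livers were not called against control (0.91 ± 0.62 SE, edgeR adjusted p = 0.299). Strand use in counting is not given, so reads of Art3 may be included.

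Cxcl9 had 1.27 to 3.22 CPM (median 1.99) in control, 3.64 to 73.1 CPM (median 5.81) in CCl4 and 0.409 to 8.12 CPM (median 3.99) in CCl4_PTH livers, with 73.1 CPM in CCl4 4 and 26.3 in CCl4 7. It rose after CCl4 (3.32 ± 0.79 SE, edgeR adjusted p = 0.00237), a call lost with the replicate number as a block (edgeR adjusted p = 0.0648). The Cxcl9 difference with PTH (−2.26 ± 0.75 SE, edgeR adjusted p = 0.0585) passed without CCl4 1, 5 or 8 (edgeR adjusted p from 0.036 to 0.0463) and in DESeq2 (DESeq2 adjusted p = 0.013). Cxcl11, annotated as a polymorphic pseudogene in mouse GENCODE, had 1.27 to 3.1 CPM (median 2.25), 1.71 to 2.87 CPM (median 1.92) and 0.954 to 2.39 CPM (median 1.88) in control, CCl4 and CCl4_PTH libraries, and its log2 change after CCl4 was −0.087 ± 0.25 SE, edgeR adjusted p = 0.802. Cxcr3, the shared receptor, had 0.0868 to 0.4 CPM (median 0.369) in control and 0.204 to 1.42 CPM (median 0.566) in CCl4 libraries (1.18 ± 0.58 SE, edgeR adjusted p = 0.105), and the difference was called without CCl4_PTH 1 (edgeR adjusted p = 0.0469).

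All 7 T cell markers (Cd3d, Cd3e, Cd3g, Cd4, Cd8a, Cd8b1 and Lck) rose after CCl4 and 0 were called with PTH. They summed to 1.39 to 3.12 CPM in control, 3.22 to 31.6 in CCl4 and 1.49 to 11.1 in CCl4_PTH livers, and the 2 highest sums were CCl4 4 and CCl4 7, the libraries highest for Cxcl9, Cxcl10 and Ccl5. Of 6 NK cell markers, 3 (Klrd1, Gzma and Eomes) rose after CCl4 and 0 were called with PTH. Their sums ran from 0.666 to 2.17 CPM in control, 1.08 to 8.04 in CCl4 and 1.32 to 2.89 in CCl4_PTH libraries, with Eomes at 0 in all control libraries. The part of these cells in the ligand levels was not tested.

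**Figure D5:**
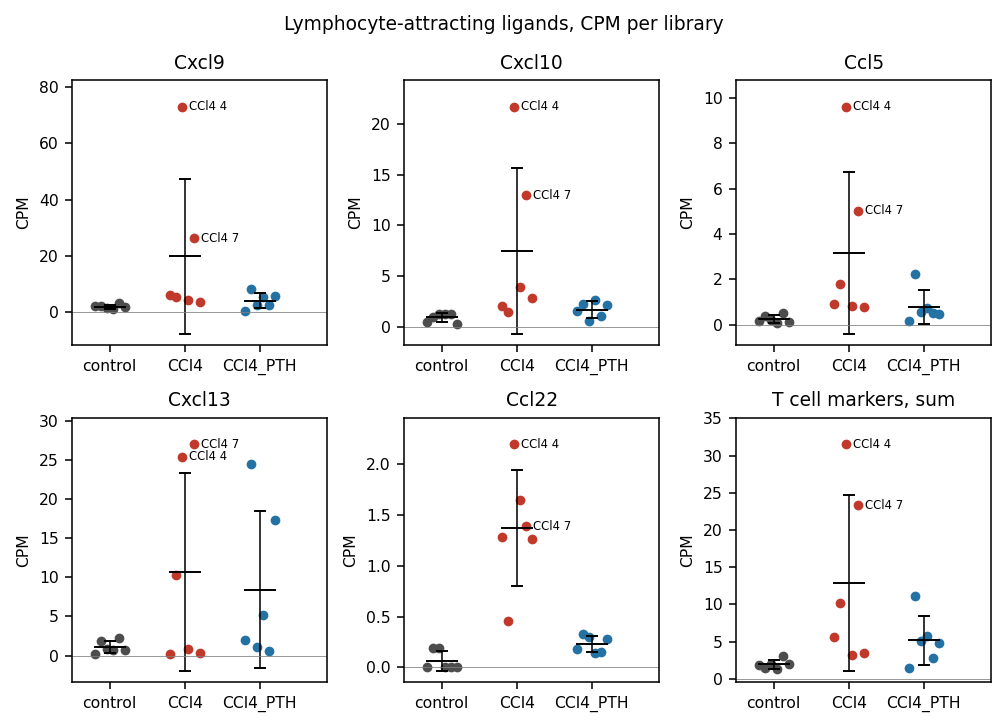
CPM of Cxcl9, Cxcl10, Ccl5, Cxcl13 and Ccl22 and the summed CPM of 7 T cell markers in each library (points) by group, with the mean (line) and SD (bar, n = 6). CCl4 4 and CCl4 7, named in each panel, are the 2 highest CCl4 libraries in every panel except Ccl22, where the CCl4_PTH points lie below all CCl4 points.

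Chemokines that organise lymphoid tissue were uneven between livers. Cxcl13, which draws B cells through Cxcr5, had 0.185 to 2.29 CPM (median 0.818) in control, 0.247 to 27 CPM (median 5.53) in CCl4 and 0.554 to 24.5 CPM (median 3.63) in CCl4_PTH livers. Its high values were scattered over both treated groups: 10.3, 25.4 and 27 CPM in CCl4 2, 4 and 7, and 24.5 and 17.3 in CCl4_PTH 2 and 8. The call after CCl4 (3.29 ± 1.19 SE, edgeR adjusted p = 0.031) was lost without control 1, 3, 4 or 8 or CCl4 4 or 7 (edgeR adjusted p from 0.0562 to 0.0801). Cxcr5 was called higher after CCl4 (1.18 ± 0.48 SE, edgeR adjusted p = 0.048), and this call was lost in 15 of the 18 fits without 1 library, those without control 1, 3, 4, 5 or 8, CCl4 1, 4, 5 or 7 or CCl4_PTH 1, 2, 3, 6, 7 or 8 (edgeR adjusted p from 0.0521 to 0.17).

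Ccl19, a Ccr7 ligand of lymphoid stroma and mature dendritic cells, was called higher after CCl4 (0.99 ± 0.36 SE, edgeR adjusted p = 0.0291) at 0.247 to 0.765 CPM against 0.107 to 0.41 in control, and lost the call without control 2, 4, 5 or 8 or CCl4 2, 4 or 7 (edgeR adjusted p from 0.0541 to 0.0839). Ccr7, the homing receptor of naive T cells and migrating dendritic cells, rose from a range of 0 to 0.593 CPM (median 0.274) to a range of 0.298 to 2.99 CPM (median 1.28) (2.25 ± 0.65 SE, edgeR adjusted p = 0.00816). That call was lost with the replicate number as a block (edgeR adjusted p = 0.0650). The Ccr7 difference with PTH (−1.70 ± 0.63 SE, edgeR adjusted p = 0.0822) passed without control 4 (edgeR adjusted p = 0.0431) and in DESeq2 (DESeq2 adjusted p = 0.0292). Ccl21a, the other Ccr7 ligand, was not called (0.37 ± 0.43 SE, edgeR adjusted p = 0.499). Ccl21a and Ccl21b are near-identical copies whose reads could be split between them, and Ccl21b was not tested (at most 0.194 CPM in any library). All 6 B and plasma cell markers (among them Cd79a, Cd79b, Ms4a1, Jchain and Mzb1) rose after CCl4 and 0 were called with PTH, with sums of 2.39 to 5.55, 8.96 to 19.7 and 6.33 to 29.5 CPM in control, CCl4 and CCl4_PTH libraries. Of 6 dendritic cell markers, 4 (Flt3, Clec9a, Itgax and Siglech) rose after CCl4 and 1 (Itgax) fell with PTH.

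Cxcl12 and Cxcr4, a ligand and receptor that retain and position cells, moved in opposite directions after CCl4. Cxcl12 (chromosome 6, 117168535 to 117181367) had 249 to 297 CPM (median 266) in control, 137 to 225 CPM (median 184) in CCl4 and 176 to 299 CPM (median 230.2) in CCl4_PTH livers, with every CCl4 library below every control library. It fell after CCl4 by 0.52 ± 0.13 on the log2 scale (SE, edgeR adjusted p = 0.00249). That direction depends on the scaling: with library sizes alone the log2 change was 0.065 ± 0.16 SE, edgeR adjusted p = 0.744, beside a median of 0.63 for all genes. In CCl4_PTH livers Cxcl12 overlapped both other groups (0.33 ± 0.13 SE, edgeR adjusted p = 0.104 against CCl4), and it was called higher than CCl4 without CCl4 8 or CCl4_PTH 1 (edgeR adjusted p from 0.0233 to 0.0499). The voom fit over all libraries also called it higher than CCl4 (voom adjusted p = 0.0191). Markers of sinusoidal endothelium summed to 166 to 194, 162 to 199.9 and 169 to 235 CPM in control, CCl4 and CCl4_PTH libraries, and of the 6, Clec4g fell and Lyve1 rose after CCl4, and Clec4g rose with PTH. All 5 vascular endothelial markers and all 5 cholangiocyte markers rose after CCl4, as did 3 of 6 stellate cell and fibroblast markers (Pdgfrb, Col1a1 and Dcn), and 0 of these 16 were called with PTH. The part of these cells in the Cxcl12 values was not tested.

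Cxcr4, carried by most leukocytes (chromosome 1, 128588199 to 128592293), ranged from 0.176 to 0.724 CPM (median 0.431) in control, 3.64 to 6.2 CPM (median 4.17) in CCl4 and 2.04 to 3.24 CPM (median 2.44) in CCl4_PTH livers, again 3 ranges that did not overlap. The rise after CCl4 was 3.28 ± 0.26 SE, edgeR adjusted p = 3.5e-08. With PTH it fell by 0.85 ± 0.23 (SE, edgeR adjusted p = 0.022), and the call was lost without CCl4 4 or 7 or CCl4_PTH 6 or 7 (edgeR adjusted p from 0.0561 to 0.0693). The call was also lost with the replicate number as a block (edgeR adjusted p = 0.292). Per unit of Ptprc, Cxcr4 had ratios of 0.0381 to 0.095 (median 0.0706) in CCl4 and 0.0445 to 0.107 (median 0.0543) in CCl4_PTH libraries, which overlapped.

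Both transmembrane chemokines and both of their receptors rose after CCl4, 4 of 4 tested, and 0 of 4 were called with PTH by edgeR over all 18 libraries. DESeq2 called Cx3cl1, Cx3cr1 and Cxcl16 lower with PTH (DESeq2 adjusted p = 0.0388, 0.0216 and 0.0363). The voom fit called Cx3cr1 lower (voom adjusted p = 0.0429). Cx3cl1, or fractalkine (chromosome 8, 94772009 to 94782427), made by endothelium and epithelium, had 0.382 to 0.628 CPM (median 0.47) in control, 3.07 to 9.04 CPM (median 5.37) in CCl4 and 1.22 to 5.14 CPM (median 3.33) in CCl4_PTH livers. Every treated liver was above every control liver, and the treated groups overlapped. It rose after CCl4 by 3.47 ± 0.31 SE, edgeR adjusted p = 1.46e-07. Its difference with PTH was −0.77 ± 0.28 SE, edgeR adjusted p = 0.0749, which passed without CCl4 1 or CCl4_PTH 8 (edgeR adjusted p from 0.0382 to 0.0388).

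Cx3cr1, the fractalkine receptor of patrolling monocytes and some macrophages (with Gm33858 on the other strand), had 0.748 to 1.19 CPM (median 1.04), 6.32 to 17.8 CPM (median 11.8) and 2.13 to 11 CPM (median 5.93) in control, CCl4 and CCl4_PTH livers. The log2 change was 3.58 ± 0.36 SE, edgeR adjusted p = 5.24e-07 after CCl4 and −0.94 ± 0.32 SE, edgeR adjusted p = 0.0609 with PTH, the latter of which passed without CCl4 5 or 8 or CCl4_PTH 8 (edgeR adjusted p from 0.0245 to 0.0485). Cxcl16, a ligand of macrophages and sinusoidal endothelium (overlapping Zmynd15 on the other strand), rose from a range of 3.51 to 4.72 CPM (median 4.36) to a range of 8.66 to 35.8 CPM (median 15.4) after CCl4 (2.11 ± 0.31 SE, edgeR adjusted p = 2.51e-05) and had 6.95 to 15 CPM (median 10.1) in CCl4_PTH livers. The PTH difference was −0.79 ± 0.30 SE, edgeR adjusted p = 0.0864, called without CCl4 5 or 8 (edgeR adjusted p from 0.0371 to 0.0468). Cxcr6, its receptor on liver NKT and resident T cells, rose by 0.74 ± 0.26 SE, edgeR adjusted p = 0.0251, with overlap of the groups (1.03 to 2.43 CPM in control and 1.69 to 3.96 in CCl4), and lost the call without control 1, 4 or 8 or CCl4 1, 2 or 4 (edgeR adjusted p from 0.0513 to 0.0765).

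Ccl22, made by dendritic cells and macrophages to draw Ccr4-bearing regulatory and helper T cells, had the lowest log2 fold change with PTH among the tested members. It lies between 94745590 and 94751699 on chromosome 8, within 66 kb of Cx3cl1 and Ccl17. Control libraries had 0 to 0.195 CPM (median 0), CCl4 libraries 0.454 to 2.198 CPM (median 1.34) and CCl4_PTH libraries 0.14 to 0.328 CPM (median 0.23), and every CCl4_PTH library was below every CCl4 library. It rose after CCl4 by 4.56 ± 0.78 SE, edgeR adjusted p = 0.000104 and fell with PTH by 2.57 ± 0.66 (SE, edgeR adjusted p = 0.017), a call that held in each of the 18 fits without 1 library. The call with PTH was lost with the replicate number as a block (edgeR adjusted p = 0.173). The Ccl22 levels rest on 35 to 227 counts per CCl4 library and 12 to 49 per CCl4_PTH library. Against control, the CCl4_PTH livers differed by 1.99 ± 0.77 SE, edgeR adjusted p = 0.0616, which passed without control 2 or 3 (edgeR adjusted p from 0.021 to 0.0219). It also passed in DESeq2 (DESeq2 adjusted p = 0.0249), with voom (voom adjusted p = 0.0197) and with library sizes alone (edgeR adjusted p = 0.00888).

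Ccl17, the other Ccr4 ligand, was not tested. It had 0 counts in control, 0 to 0.252 CPM in CCl4 and 0 to 0.238 in CCl4_PTH libraries. Ccr4 itself, also not tested, was detected in 6 of 6 CCl4 libraries at 0.0678 to 0.331 CPM, in 1 of 6 control libraries and in 3 of 6 CCl4_PTH libraries. Ccr6, the receptor of Ccl20 on B cells and some helper T cells, was not called after CCl4 (1.55 ± 0.66 SE, edgeR adjusted p = 0.0612). It was called without control 3 (edgeR adjusted p = 0.0255), in DESeq2, with voom and with library sizes alone. Ccl20 had counts in 1 library.

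Of the eosinophil group, the receptor Ccr3 rose after CCl4 and the 1 tested ligand, Ccl24, was not called. Ccr3 had 0 to 0.19 CPM (median 0.0232) in control, 0.285 to 1.56 CPM (median 1.17) in CCl4 and 0.434 to 0.69 CPM (median 0.514) in CCl4_PTH livers (4.32 ± 0.66 SE, edgeR adjusted p = 3.37e-05 after CCl4 and −1.002 ± 0.53 SE, edgeR adjusted p = 0.234 with PTH). The treated libraries were all above control. Ccl24, an eotaxin of macrophages, had 0.243 to 0.97 CPM (median 0.598) in control, 0.194 to 2.3 CPM (median 1.46) in CCl4 and 0.355 to 2.55 CPM (median 0.583) in CCl4_PTH libraries, where 2.55 CPM was CCl4_PTH 1, and the groups overlapped. It was not called after CCl4 (1.16 ± 0.55 SE, edgeR adjusted p = 0.0929), except without CCl4 2 (edgeR adjusted p = 0.0331) and with library sizes alone (edgeR adjusted p = 0.00739). Ccl11, not tested, had 0 counts in control and reached 0.91 CPM in CCl4 4, and Ccl26 had 0 counts in all 18 libraries.

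Epithelial chemokines and their receptors were not called after CCl4 in 4 of 5 tested members, Ccl27a being the exception. Ccl25, which draws T cells to the gut through Ccr9, had 6.87 to 10.8 CPM (median 8.13) in control, 5 to 8.52 CPM (median 6.35) in CCl4 and 5.53 to 7.8 CPM (median 7.16) in CCl4_PTH livers, with a log2 change of −0.30 ± 0.14 SE, edgeR adjusted p = 0.0905 after CCl4. It was called lower after CCl4 without control 5 or CCl4 5 or 8 (edgeR adjusted p from 0.024 to 0.0475). Ccr9 had 1.91 to 3.5 CPM (median 3.11), 1.77 to 4.04 CPM (median 2.21) and 1.86 to 2.61 CPM (median 2.38) in the same order (−0.28 ± 0.20 SE, edgeR adjusted p = 0.254 after CCl4), and was called lower without CCl4 4 (edgeR adjusted p = 0.0362). Exons of Elavl1 overlap Ccl25 and exons of Slc6a20a overlap Ccr9 on the other strand, so reads of these neighbours may be counted.

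Ccl27a, a ligand of Ccr10 known from skin, fell after CCl4. It had 1.62 to 3.07 CPM (median 2.49) in control, 0.755 to 2.52 CPM (median 1.09) in CCl4 and 1.17 to 2.64 CPM (median 2.4) in CCl4_PTH livers, with CCl4 5 at 2.52 CPM and the other 5 CCl4 libraries below every control library. The change was −1.03 ± 0.28 SE, edgeR adjusted p = 0.00532 after CCl4, and 0.79 ± 0.28 SE, edgeR adjusted p = 0.0727 with PTH. Without CCl4 5 or CCl4_PTH 1 it was called higher with PTH (edgeR adjusted p from 0.00741 to 0.023). DESeq2 and voom also called it higher with PTH (DESeq2 adjusted p = 0.0346, voom adjusted p = 0.012). With library sizes alone the log2 change after CCl4 was −0.54 ± 0.28 SE, edgeR adjusted p = 0.104, beside a median of 0.63 for all genes. Ccl27a overlaps Il11ra1 on the other strand and has a near-identical copy, Ccl27b, that was not tested. Ccl28 (0.76 ± 0.62 SE, edgeR adjusted p = 0.336) and Ccr10 (1.47 ± 0.74 SE, edgeR adjusted p = 0.108) were not called after CCl4.

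Xcl1, made by T and NK cells, was called higher after CCl4 (3.30 ± 0.96 SE, edgeR adjusted p = 0.00806) at 0.0429 to 0.397 CPM, and its receptor Xcr1 on cross-presenting dendritic cells was not called (0.95 ± 0.55 SE, edgeR adjusted p = 0.17). Ccl1 and its receptor Ccr8, known from regulatory and skin T cells, were not tested and had at most 0.156 and 0.213 CPM in any library. Cxcl14, a chemokine of epithelium and stroma, rose from a range of 0.255 to 0.449 CPM (median 0.423) in control to a range of 2.04 to 12.1 CPM (median 8.11) in CCl4 livers, with no overlap (4.29 ± 0.75 SE, edgeR adjusted p = 0.000156). CCl4_PTH 1 had 17.4 CPM and the other 5 CCl4_PTH libraries 0.818 to 2.29 CPM. The PTH difference was −0.88 ± 0.63 SE, edgeR adjusted p = 0.403 with all libraries and −2.29 ± 0.37 SE, edgeR adjusted p = 0.000455 without CCl4_PTH 1. Cxcl17, a mucosal chemokine, was lower in both treated groups, at 0.116 to 0.35 CPM in CCl4 and 0.0851 to 0.264 in CCl4_PTH against 0.29 to 0.527 in control libraries (−1.05 ± 0.35 SE, edgeR adjusted p = 0.0174 after CCl4), from at most 35 counts per control library. Its call in CCl4_PTH against control (edgeR adjusted p = 0.0311) was lost without control 3 or 8 or CCl4_PTH 1, 3 or 8 (edgeR adjusted p from 0.0501 to 0.0667).

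Set side by side, 3 of 15 tested receptors and 2 of 28 tested ligands were called lower with PTH, where 4.95% of all genes tested were. The ligand share, 7.14%, was near that of all genes. The difference between receptors and ligands was not tested. The receptor sum per leukocyte marker sum was 0.441 to 0.654 (median 0.558) in control, 0.519 to 0.622 (median 0.596) in CCl4 and 0.407 to 0.777 (median 0.481) in CCl4_PTH libraries, which overlapped in all 3 groups. CCl4_PTH 1 had the highest ratio, 0.777. For Ccr2 and Cxcr4, the receptor was called lower with PTH while its main tested ligand (Ccl2 and Cxcl12) was not. The log2 differences of those ligands with PTH were −1.02 for Ccl2 and 0.33 for Cxcl12, beside −1.39 for Ccr2 and −0.85 for Cxcr4. The ligand Cxcl10 was called lower while its receptor Cxcr3 (−0.35) was not. A gene that missed the threshold is not thereby shown to be unchanged.

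Many members lie near another member on the chromosome. Of 56, 40 lie within 1 Mb of another member, in 10 runs (GRCm38, GENCODE M21). On chromosome 11, Ccl2, Ccl7, Ccl11, Ccl12, Ccl8 and Ccl1 span 82035571 to 82305690, and all 3 that were tested rose after CCl4. Another run on that chromosome, 83525778 to 83664683, holds Ccl5, Ccl9, Ccl6, Ccl3 and Ccl4, of which 5 of 5 rose. On chromosome 4, Ccl27a, Ccl21b, Ccl27b, Ccl19 and Ccl21a lie between 41769467 and 42773993, and of the 3 tested there 1 rose (Ccl19) and 1 fell (Ccl27a). Over all 43 tested members 29 rose, as did 26.3% of all genes tested. Whether position went with the calls was not tested, and not all runs are described here.

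Genes that act with the chemokines were counted from lists of known function. Beside the counts of these lists and of the cell marker lists stand the shares of all genes tested. These were 26.3% higher and 21.2% lower after CCl4, and 7.1% higher and 4.95% lower with PTH. Signalling proteins downstream of chemokine receptors (among them the G protein subunit Gnai2, the PI3-kinase Pik3cg, and Dock2 and Rac2, which drive leukocyte migration) were all higher after CCl4, 16 of 16, and 10 of 16 were lower with PTH (among them Pik3r5, Arrb2, Rgs1, Dock2, Elmo1, Rac2, Was, Vav1 and Fgr). Their median log2 fold change was 2.36 after CCl4 and −0.87 with PTH, against 0.05 and −0.03 over all genes tested. Rac2, the haematopoietic Rac, had 2.5 to 4 CPM (median 2.92), 8.61 to 25.4 CPM (median 12.9) and 5.31 to 10.03 CPM (median 7.99) in control, CCl4 and CCl4_PTH livers (−0.95 ± 0.24 SE, edgeR adjusted p = 0.017 with PTH). Of the 3 leukocyte markers, 3 rose after CCl4 and 2 (Coro1a and Laptm5) fell with PTH.

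Of 5 atypical receptors, which bind chemokines without G protein signalling, 2 (Ackr3 and Ccrl2) rose and 1 (Ackr4) fell after CCl4, and 0 were called with PTH. Ackr4, a scavenger of Ccl19, Ccl21 and Ccl25, had 13.3 to 18.7 CPM (median 16.4) in control and 4.83 to 10.6 CPM (median 7.28) in CCl4 livers (−1.15 ± 0.16 SE, edgeR adjusted p = 1.73e-05). Among other chemoattractants, the platelet chemokines Pf4 and Ppbp and the receptor Cmklr1 rose after CCl4, Mif and Rarres2 fell, and 0 of 5 were called with PTH. Of 5 proteases that cut chemokines, Mmp9, Mmp12, Adam10 and Adam17 rose after CCl4 and Dpp4 fell. With PTH, Mmp12, the macrophage elastase, fell from a range of 16.1 to 91 CPM (median 55.8) to a range of 8.75 to 17.6 CPM (median 10.3) (−2.17 ± 0.47 SE, edgeR adjusted p = 0.0077). Dpp4, a hepatocyte surface peptidase that trims Cxcl10 and Cxcl12, rose with PTH from a range of 26.7 to 64 CPM (median 44.3) to a range of 31.5 to 88.8 CPM (median 85.4) (0.71 ± 0.22 SE, edgeR adjusted p = 0.04).

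Genes of pathways that induce chemokine genes also moved, beside 26.3% of all genes tested called higher after CCl4 and 4.95% called lower with PTH. Of 4 tested interferon-gamma inputs (among them Ifngr1, Ifngr2 and Irf1), 4 rose after CCl4 and 1 (Ifngr1) fell with PTH, and Ifng was not tested. Of 10 TNF, IL-1 and NF-kB pathway genes, 8 rose after CCl4 and 3 (Tnf, Nfkb1 and Nfkb2) fell with PTH. The 10 include the pathway inhibitors Tnfaip3, which rose after CCl4, and Nfkbia, which was not called. Tnf had 0 to 0.276 CPM (median 0.164), 1.06 to 8.72 CPM (median 1.64) and 0.506 to 1.01 CPM (median 0.765) in the same order, a log2 change of 4.38 ± 0.61 SE, edgeR adjusted p = 1.32e-05 after CCl4 and −2.01 ± 0.52 SE, edgeR adjusted p = 0.0177 with PTH. Of 3 tested lymphotoxin inputs, Ltb and Tnfsf14 rose and Ltbr fell after CCl4, and 0 were called with PTH.

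RefSeq windows from 250 bases before to 50 after a transcript start (GRCm38.p6) were found for 41 of the 56 members. For each member only the window nearest its GENCODE start was used, while the shares of all windows count every window. Some of these lie far from that start: 125878 bases for Ccl1, 88772 for Ccr9, 82647 for Ccl21b, 8372 for Ccr4 and 1583 for Cx3cr1. Ccl1 and Ccr4 are counted below among members with a motif. The NF-kB consensus stood in 9 of the 41 (Ccl1, Ccl20, Ccl9, Cxcl1, Cxcl10, Cxcl2, Cxcl3, Ccr1 and Ccr3), against 8.46% of all 32851 windows of that length. GAAA runs 2 bases apart stood in 3 (Ccl19, Cxcl10 and Cxcl14), against 3.44% of all windows, TTCNNNGAA, the core of STAT sites, in 3 against 8.30%, TGANTCA, the core of AP-1 sites, in 7 against 7.81%, and TATAAA in 10 against 13.6%. Both strands were searched, and no NF-kB match overlapped a GAAA pair in these windows. Of the 20 members with a window that rose after CCl4, 5 held the NF-kB consensus. These are counts of letters, and no test was made of them. Ccl2, Ccl7, Ccl4 and Ccl5 are among the members without a window.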

How the data were processed

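RNA from 18 mouse livers was measured by RNA-seq (ribosomal RNA removed, paired reads of 150 bases, per the labels' protocols). The authors deposited 1 table of estimated counts per gene, all whole numbers, so rounding changed 0 values. Per the submitters' processing notes, the tools were StringTie 2.1.5, HISAT2 2.2.1, Bowtie2 2.5.1, cutadapt 4.2 and FastQC 0.11.9, with no roles given, on GRCm38. The counting tool, its annotation and its use of strand are not given in the sources used here, so reads of overlapping genes on the other strand, and of near-identical copies, cannot be told apart. Gene positions and lengths were taken from GENCODE M21 and promoter windows from RefSeq.

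From the counts, edgeR 4.0.16 (R 4.3.3) computed TMM factors and a quasi-likelihood fit with robust dispersion over all 18 libraries, after filterByExpr with a minimum count of 10 left 21840 of 54752 genes. Adjusted p-values are Benjamini-Hochberg over all genes tested, with a threshold of 0.05, and SEs were approximated from the log2 fold change and its F statistic. CPM uses TMM-scaled library sizes. The mean total was 82.2 M counts for control (SD 3.14), 76.7 M for CCl4 (SD 6.49) and 103 M for CCl4_PTH (SD 16.1). In each of the 45 pairs of libraries within a group, counts differed by more than sampling noise (chi-square per gene at least 57.9). The labels describe mice but tie no library to an animal beyond its number, so p-values measure the spread between these libraries.

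Values per library or range were given for the markers Ccl2, Ccr2, Cxcl10 and Cx3cl1, the 10 ligands and 6 receptors with the smallest p after CCl4, every member called with PTH or called lower after CCl4, members of at least 1 CPM not called after CCl4, and the 3 most abundant members in control. Other members whose values are given were chosen after their values were seen. The members and gene lists were chosen with earlier results of these data known. Alternatives were other scaling, no count filter, the replicate number as a block, 2 groups only, DESeq2 1.42.0, limma 3.58.1 voom with quality weights, and leaving out each library. Some members and list genes are counted in totals and their own values are not reported here.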

Additional observations from a re-analysis of the deposited data

Results flagged for a closer look

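Among 75 groups of 6 libraries (25 genes in 3 groups), 13 held a library that stood apart by Dixon's gap test on log2(CPM + 0.05) at the 95% level. For normally spread values that level flags about 1 in 20 groups, and groups with libraries at 0 do not meet this. For Ccl3 and Ccl4 in control, where the other libraries tied at 0, the gap was the whole range. The count of 13 was therefore not set against that rate. Of the 13, 5 came from the single library CCl4_PTH 1. It was high for Cxcl1 (88.6 CPM, against 4.24 to 9.04 in the other 5), Ccl6 (73.7 against 6.63 to 14.4), Cxcl14 (17.4 against 0.818 to 2.29) and Ccl7 (2.61 against 0.252 to 0.577), and low for Cxcl11 (0.954 against 1.80 to 2.39).

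In the CCl4 group, CCl4 2 was low for Ccl22 (0.454 CPM, against 1.27 to 2.198 in the other 5), CCl4 5 was high for Ccl27a (2.52 against 0.755 to 1.14) and CCl4 1 was high for Cxcl11 (2.87 against 1.71 to 2.02). In control, Ccl2 was at 0 in control 3 (0.127 to 0.321 CPM in the others), Cxcl14 was low in control 1 (0.255 against 0.398 to 0.449) and Ccr9 was low in control 8 (1.91 against 2.96 to 3.50). Ccl3 in control 3 (0.117 CPM) and Ccl4 in control 5 (0.229 CPM) were each the control library with counts while the other 5 were at 0.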

How the results depend on the processing

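Of 75 results on 25 named genes (each in 3 comparisons), 47 kept their side of the threshold under every alternative that gave a value and 28 crossed it. There were 25 alternatives, of which 24 gave a value for Ccl3 in CCl4_PTH against control and Ccl7 after CCl4. The direction of 1 called result turned, Cxcl12 after CCl4, with a log2 change of 0.065 with library sizes alone, as did that of 13 results that were not called, 0 of them past the threshold once turned. With library sizes alone these were, after CCl4, Ccl25 (0.23), Cxcl11 (0.51) and Ccr9 (0.35), with PTH, Ccl25 (−0.020) and Cxcl17 (−0.054), and in CCl4_PTH against control, Ccl25 (0.21), Ccl27a (0.22), Cxcl11 (0.31), Cxcl12 (0.29) and Ccr9 (0.11). With the replicate number as a block they were Cxcl11 after CCl4 (0.051) and Cxcl17 (−0.23) and Ccr9 (0.040) with PTH, and with voom Cxcl1 with PTH (−0.30). Leaving out 1 library took Cxcl11 after CCl4 from −0.25 to 0.012 and, with PTH, Ccl25 from −0.015 to 0.15, Cxcl1 from −0.52 to 1.26, Cxcl11 from −0.18 to 0.039, Cxcl17 from −0.098 to 0.32 and Ccr9 from −0.14 to 0.12. With library sizes alone, members called lower after CCl4 were 0, all genes called were 11275 higher and 1061 lower after CCl4, 476 and 621 with PTH, and 9559 and 353 in CCl4_PTH against control, where members called lower were 0. For CCl4_PTH against CCl4, fitting only the 2 groups left 709 genes lower. DESeq2 called 1 member higher and 12 lower, with 2021 genes higher and 1798 lower. With quality weights, voom called 2 members higher and 10 lower, with 2198 genes higher and 1969 lower. Without the count filter, members lower in CCl4_PTH against control were 0.

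Leaving out 1 library at a time gave 25 to 32 members higher and 3 to 4 lower after CCl4 (5091 to 5762 genes higher and 4014 to 5189 lower). With PTH it gave 0 to 2 members higher and 2 to 10 lower (934 to 2286 genes higher and 575 to 1568 lower), and in CCl4_PTH against control 17 to 21 higher and 0 to 1 lower (3235 to 3928 and 1933 to 2586 genes). The label numbers recur between groups, but the 13 same-numbered pairs had correlations of deviations from −0.209 to 0.0833, 0 of them over 0.1, so they were not taken as pairs. With the replicate number as a block, 24 members were higher and 3 lower after CCl4 (4873 genes higher and 3809 lower). In that fit 0 members were higher and 0 lower with PTH (42 genes higher and 42 lower), with Cxcl10 at −1.24 (edgeR adjusted p = 0.421). CCl4_PTH against control had 16 members higher and 0 lower there (2501 genes higher and 842 lower). The cause of these changes was not tested. Many untested members and Ccl22, Ccl12 and Xcl1 rest on few counts, which limits what depth can show.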
